A study of Arabidopsis thaliana with 8 samples.

Results

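The plastid genome of Arabidopsis thaliana carries the genes of the core subunits of the photosynthetic complexes, and 43 of them were followed here in 4 seedling genotypes. The set was defined by position and name: genes on the plastid genome whose symbol starts with psa, psb, pet, atp or ndh, together with rbcL, each on a probe set tied to that gene alone. It holds 43 genes on 43 probe sets, of 22746 probe sets tested and of 69 plastid-encoded genes with such a probe set. By complex these are 5 genes of photosystem I, 15 of photosystem II, 6 of the cytochrome b6f complex, 6 of ATP synthase, 10 of the NDH complex and the Rubisco gene rbcL. The reference gene table lists 44 such symbols, and the remaining one, ndhB, has a copy in each inverted repeat and a probe set shared by both copies, so it was not counted.

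Each genotype was measured on 2 Affymetrix arrays, one for each biological replicate. Beside Col-0 wild type the series holds a gbf1 single mutant and 2 double mutants, gbf1 hy5 and gbf1 hyh, so that all 3 mutant genotypes carry a mutation in gbf1. Whole seedlings were taken at 4 days of age, after 4 days in the cold at 4 °C and growth on 1% sucrose at 22 °C under continuous white light (20 µmol m-2 s-1). An ecotype is labelled for wild type alone, and neither alleles nor the number of plants in a sample are stated, so genetic background and mutation cannot be told apart.

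All 3 mutated genes, GBF1, HY5 and HYH, are nuclear and encode bZIP-type regulators of transcription. HY5 and its homologue HYH promote the development of seedlings in light, and GBF1 acts in the same responses to light. Plastid genes are transcribed in the organelle, most photosynthesis genes by a bacterial-type polymerase whose core is plastid-encoded and whose sigma factors come from the nucleus. Many lie in co-transcribed clusters, and their transcripts are cut, spliced and edited afterwards. Photosystem II, the cytochrome b6f complex and photosystem I pass electrons from water to NADPH, ATP synthase uses the proton gradient they build, and the NDH complex returns electrons to the chain around photosystem I. Each complex also holds subunits encoded in the nucleus.

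All values are log2 signals of a probe set relative to its own median over the 8 arrays, so they hold no expression level and cannot rank genes against each other. For the same reason the labelled tissue could not be checked against marker levels. The arrays were labelled with a 3' IVT kit, which primes on poly(A), and plastid transcripts lack the stable poly(A) tails of nuclear messengers. How closely such signals track plastid transcript levels was not tested, and lower signal from fewer or smaller green cells or plastids cannot be told apart from less RNA per plastid.

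Several array measures differed between arrays, some within a genotype and some between genotypes. The hybridisation spike-in controls were high on 2 arrays, gbf1 replicate 2 (mean 1.79) and gbf1 hyh replicate 2 (mean 1.50). Elsewhere the mean lay from -0.52 to 0.27. These 2 arrays are called the high spike-in pair below. The cytosolic 25S rRNA control, also an RNA without a messenger's poly(A) tail, read 0.0013 and 0.78 in wild type, 0.54 and 0.84 in gbf1, -0.47 and -0.49 in gbf1 hy5, and -0.0013 and -0.054 in gbf1 hyh. It was highest on both gbf1 arrays and wild type replicate 2 and lowest on both gbf1 hy5 arrays. The 5S rRNA control did not share this order, with 0.0077 and -0.13 in wild type and -0.13 and 0.67 in gbf1. In gbf1 hy5 the 5S control read -0.12 and 0.12, and in gbf1 hyh -0.0077 and 0.22. The 3' minus 5' signal of the actin, GAPDH and ubiquitin controls was 0.59 and -0.16 in wild type, 0.30 and -0.29 in gbf1, 0.27 and -0.027 in gbf1 hy5, and 0.055 and -0.35 in gbf1 hyh, lower on replicate 2 than on replicate 1 in every genotype. HYH itself was at 1.08 and 0.85 in wild type, 1.69 and 1.94 in gbf1, -1.01 and -0.85 in gbf1 hy5, and -2.03 and -1.78 in gbf1 hyh, lowest on the 2 arrays labelled gbf1 hyh, although with no allele stated the place of the mutation relative to the probe set is not known. For GBF1 and HY5 the probe table used here lists no single-gene probe set.

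Taken over the 43 genes, the median signal was 0.067 and 0.47 in wild type, -0.12 and 0.33 in gbf1, -0.35 and -0.11 in gbf1 hy5, and -0.15 and 0.019 in gbf1 hyh. Both gbf1 hy5 arrays and gbf1 hyh replicate 1 lay low together with gbf1 replicate 1, and wild type replicate 2 and gbf1 replicate 2 lay high, so the replicates of wild type and of gbf1 did not sit together. Replicate 2 was above replicate 1 for 41 of 43 genes in gbf1, 35 in wild type, 34 in gbf1 hy5 and 29 in gbf1 hyh. The 26 other plastid-encoded genes had medians of 0.045 and 0.37 in wild type, 0.086 and 0.55 in gbf1, -0.43 and -0.092 in gbf1 hy5, and -0.10 and -0.21 in gbf1 hyh, and the 23 mitochondrial probe sets had medians of -0.0079 and 0.026 in wild type, -0.12 and 0.046 in gbf1, -0.0025 and 0.055 in gbf1 hy5, and -0.14 and 0.17 in gbf1 hyh. The median of replicate 2 minus replicate 1 was 0.35 in wild type and 0.48 in gbf1, as large as or larger than 4 of the 6 median differences between genotypes given below. In both genotypes the 25S rRNA control was also higher, and the 3' minus 5' signal lower, on replicate 2, and their part in the differences was not tested.

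**Figure D1:**
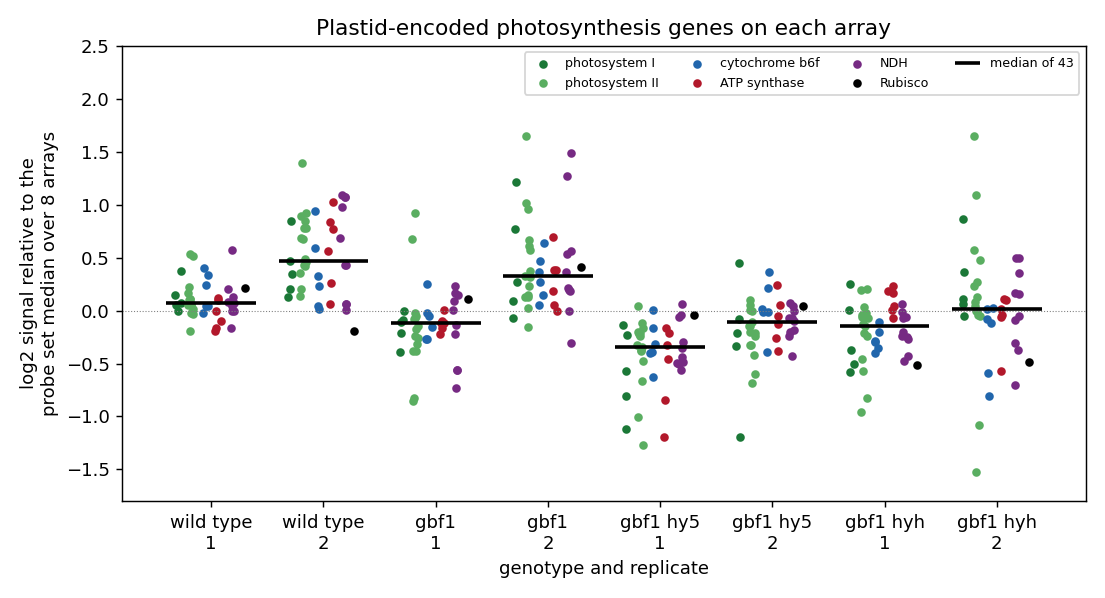
Log2 signal of the 43 plastid-encoded photosynthesis genes relative to each probe set's median, on each of the 8 arrays, coloured by complex; black lines are the medians of the 43. The medians run from -0.35 on gbf1 hy5 replicate 1 to 0.47 on wild type replicate 2.

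**Figure D2:**
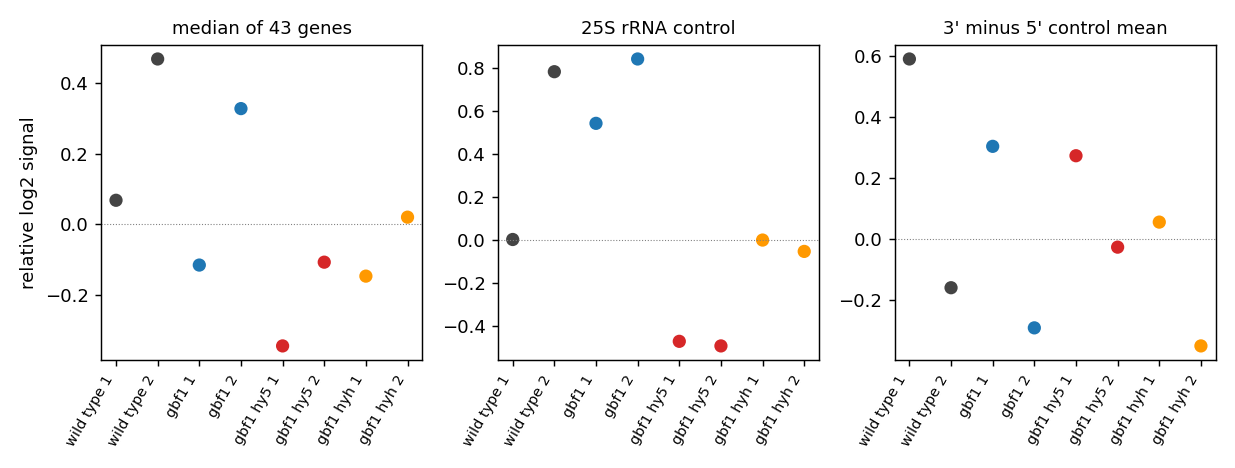
Median signal of the 43 genes, the 25S rRNA control and the 3' minus 5' mean of the actin, GAPDH and ubiquitin controls on each array, all relative log2 values, with separate vertical scales. The 25S rRNA control reads -0.47 and -0.49 on the gbf1 hy5 arrays, the lowest of the 8.

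Single genes varied to very different extents. The range over the 8 arrays had its minimum at 0.32 in atpE, the epsilon subunit of ATP synthase, and its maximum at 2.44 in psbK, a small subunit of photosystem II, with a median of 1.24. The photosystem I reaction-centre gene psaB (0.37) and the NDH genes ndhC (0.43) and ndhF (0.48) also stayed within a narrow range. In psbT, a small photosystem II subunit, a range of 2.11 came from replicates: its values were 0.11 and 1.40 in wild type, -0.38 and 1.65 in gbf1, -0.37 and -0.11 in gbf1 hy5, and -0.46 and 1.65 in gbf1 hyh. Replicate 2 was the high array of psbT in wild type, gbf1 and gbf1 hyh, and all groups but gbf1 hy5 spanned more than 1 log2 unit.

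Of the 3 mutant genotypes gbf1 hy5 had the lowest median signal of the 43 plastid photosynthesis genes relative to wild type. All 43 genes had a mean below wild type, where 44.7% of all tested probe sets did. The median difference was -0.56, against 0.024 over all probe sets. The cytochrome b6f median and the means of rbcL, psbK and psbI were lower in gbf1 hyh than in gbf1 hy5. None of these genes was called between the double mutants, and petA and petL of cytochrome b6f had lower means in gbf1 hy5. Without the high spike-in pair the medians of the 43 lay closer, at -0.46 in gbf1, -0.56 in gbf1 hy5 and -0.43 in gbf1 hyh. Both gbf1 hy5 arrays lay below both wild type arrays for 32 of 43 genes, where 19.7% of all probe sets were apart in that direction. No single gene passed the limma test at an adjusted p under 0.05, where 1.11% of all probe sets were called lower and 1.06% higher. At an unadjusted p under 0.05 there were 18 of 43, all of them lower. Of all 22746 probe sets 1212 were lower and 1578 higher at that threshold, 12.3% in either direction.

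The differences in gbf1 hy5 spread over every complex. Photosystem I had a median of -0.66 (5 genes, -1.44 to -0.22), photosystem II -0.63 (15 genes, -1.43 to -0.29) and NDH -0.70 (10 genes, -1.04 to -0.0060). ATP synthase stood at -0.44 (6 genes, -1.24 to -0.25) and cytochrome b6f at -0.36 (6 genes, -0.88 to -0.031). The rbcL gene, the large subunit of the carbon-fixing enzyme Rubisco, was at -0.012 (SE 0.18). The ranges of the 5 complexes overlap, and no test between complexes was made.

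Among the photosystem I genes, psaJ, a small subunit, had the largest difference of all 43. Its signals were 0.37 and 0.21 in wild type, -0.21 and 0.27 in gbf1, -1.12 and -1.19 in gbf1 hy5, and -0.50 and 0.87 in gbf1 hyh. The gbf1 hy5 arrays were low and close together, while the 2 gbf1 hyh arrays lay far apart. The difference from wild type was -1.44 (SE 0.37, limma adjusted p = 0.0958). The SE draws on the spread of all 4 genotypes: without gbf1 replicate 2 and gbf1 hyh replicate 2, psaJ was called lower with the same difference (SE 0.13, limma adjusted p = 0.00111). The reaction-centre gene psaA read 0.072 and 0.35 in wild type, -0.39 and -0.072 in gbf1, -0.57 and -0.34 in gbf1 hy5, and 0.25 and 0.37 in gbf1 hyh. It was lower in gbf1 hy5 than in wild type on both arrays, at -0.66 (SE 0.17, limma adjusted p = 0.105), and its neighbour psaB, which encodes the partner protein in the reaction centre, was at -0.22. The iron-sulphur subunit gene psaC was at -0.29 and the small-subunit gene psaI at -0.81.

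In photosystem II the small-subunit genes psbK (-1.43, SE 0.37, limma adjusted p = 0.0978) and psbI (-1.06, SE 0.27, limma adjusted p = 0.0987) differed most. The genes of the central proteins differed less: psbA and psbD, which encode the reaction-centre proteins, were at -0.29 and -0.63, and psbB and psbC, which encode the inner antenna proteins, at -0.42 and -0.41. The psbA signals were -0.19 and 0.21 in wild type, -0.85 and 0.32 in gbf1, -0.24 and -0.33 in gbf1 hy5, and 0.19 and 0.48 in gbf1 hyh. Both gbf1 hy5 arrays lay below both arrays of wild type and of gbf1 hyh, and the 2 gbf1 arrays spanned them. The small-subunit gene psbM was at -0.95 and psbN, whose product acts in assembly, at -0.66.

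Of the cytochrome b6f genes the small-subunit gene petL had the largest difference, -0.88 (SE 0.26, limma adjusted p = 0.161), while petA (cytochrome f), petB (cytochrome b6) and petD (subunit IV) were at -0.46, -0.26 and -0.031. In ATP synthase atpA, the catalytic-head alpha subunit, was at -1.24 (SE 0.35, limma adjusted p = 0.133), from signals of 0.12 and 0.77 in wild type, -0.12 and 0.39 in gbf1, -1.20 and -0.38 in gbf1 hy5, and 0.18 and -0.57 in gbf1 hyh. Both gbf1 hy5 arrays of atpA lay below both wild type arrays, 1 of them much further. The beta and epsilon subunit genes atpB and atpE were at -0.29 and -0.25, and atpH, the gene of the membrane ring subunit, at -0.47. In the NDH complex the membrane-arm gene ndhA differed most (-1.04, SE 0.33, limma adjusted p = 0.198), followed by ndhE (-0.85), ndhK (-0.82), ndhG (-0.75) and ndhJ (-0.74), with ndhC (-0.12) and ndhF (-0.0060) at the other end.

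The size of the shift in gbf1 hy5 depended on the wild type arrays. Without wild type replicate 2 the median was -0.33, with 39 of 43 genes lower, and without wild type replicate 1 it was -0.80. Without the high spike-in pair the median was unchanged by construction, and the test was the same as that of the 2 genotypes alone. In the fit of these 2 genotypes alone 7 genes were called lower (psaJ, psbM, ndhJ, psbK, psbN, psaA and ndhI). Calls rose over the whole array too: 533 of 22746 probe sets were called lower and 593 higher, against 253 and 242 in the main fit. The 25S rRNA control differed by -0.87 in this comparison, and its part was not tested.

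**Figure D3:**
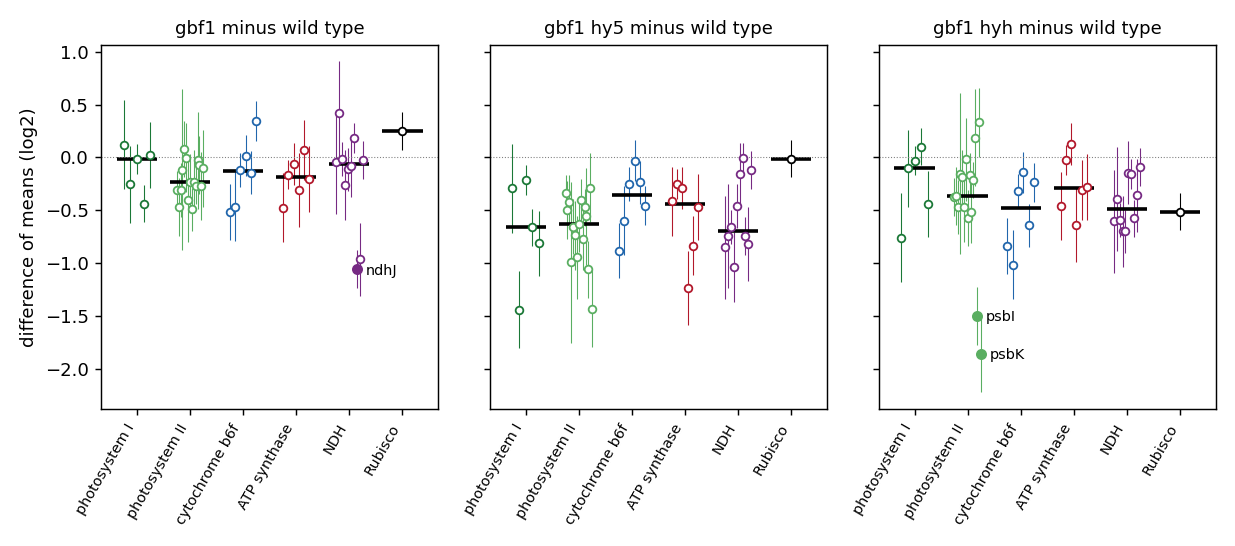
Difference of genotype means from wild type (log2) for each of the 43 genes, by complex, in gbf1, gbf1 hy5 and gbf1 hyh; whiskers are standard errors of the limma fit, black lines medians, and filled named points the genes called at an adjusted p under 0.05. The gbf1 hy5 points all lie below 0, and psbK and psbI lie furthest down in gbf1 hyh.

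In gbf1 hyh seedlings 2 neighbouring photosystem II genes fell, psbK and psbI, and most other genes had values below wild type. The 2 called genes compare with 0.919% of all probe sets called lower, and none was called higher, where 0.365% of all probe sets were. The median of the 43 was -0.37, with 39 below wild type, against a median of 0.030 and 44.5% below wild type over all probe sets. Both gbf1 hyh arrays lay below both wild type arrays for 20 genes, where 17.4% of all probe sets were so placed.

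The psbK gene encodes a small membrane subunit near the antenna of photosystem II. Its signals were 0.51 and 0.85 in wild type, 0.92 and 0.24 in gbf1, -1.27 and -0.24 in gbf1 hy5, and -0.83 and -1.53 in gbf1 hyh. All 4 arrays of the 2 double mutants were below 0 and all 4 arrays of wild type and gbf1 above it. In gbf1 hyh psbK fell by 1.86 against wild type (SE 0.37, limma adjusted p = 0.0492), from a mean of 0.68 ± 0.24 (SD, n = 2) to -1.18 ± 0.49. The psbI gene, which encodes a small subunit at the reaction centre, lies next to psbK in the order of plastid protein genes. Its signals were 0.53 and 0.43 in wild type, 0.67 and 0.15 in gbf1, -1.01 and -0.15 in gbf1 hy5, and -0.96 and -1.08 in gbf1 hyh. The same split held for psbI, with gbf1 hy5 replicate 2 the highest of the 4 low arrays. It fell by 1.50 (SE 0.27, limma adjusted p = 0.0367), from 0.48 ± 0.074 (SD, n = 2) to -1.02 ± 0.088.

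Both calls were close to the threshold. Each ended when any 1 of the 4 wild type and gbf1 hyh arrays was left out, with an adjusted p of up to 0.371 for psbK and 0.264 for psbI. Without the high spike-in pair psbK was at -1.51 (adjusted p = 0.115) and psbI at -1.44 (adjusted p = 0.0754).

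**Figure D4:**
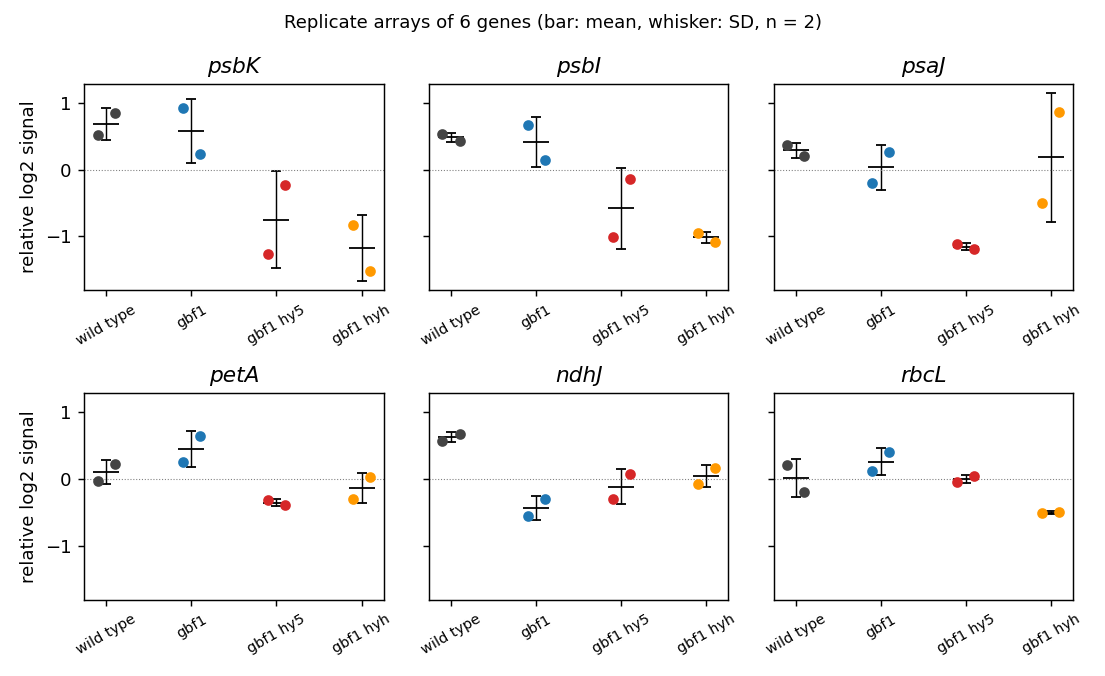
Relative log2 signals of psbK, psbI, psaJ, petA, ndhJ and rbcL on the 2 arrays of each genotype, with mean and SD. In psbK and psbI both double mutants lie below wild type and gbf1, in psaJ gbf1 hy5 lies low, in ndhJ wild type lies high, and in rbcL gbf1 hyh lies low.

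Elsewhere in gbf1 hyh the cytochrome b6f genes had a median of -0.48 with all 6 below wild type, led by the small-subunit genes petG (-1.01), petL (-0.84) and petN (-0.64), none of which passed. The NDH genes were all 10 below wild type, with a median of -0.49 and ndhA (-0.70, adjusted p = 0.533) and ndhH (-0.70, adjusted p = 0.209) lowest. Photosystem II had a median of -0.37 and ATP synthase -0.29, with atpA at -0.64 as its largest difference. The photosystem I median was -0.10, with psaC at -0.76 the largest, and became -0.68 without the high spike-in pair. Signals of rbcL were 0.21 and -0.19 in wild type, 0.11 and 0.41 in gbf1, -0.044 and 0.044 in gbf1 hy5, and -0.52 and -0.49 in gbf1 hyh. Both gbf1 hyh arrays were the lowest of the 8, and the difference from wild type was -0.51 (SE 0.18, limma adjusted p = 0.308).

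The central genes psaA (0.10), psbA (0.33) and atpB (0.13), with the small photosystem II gene psbL (0.19), were the 4 with means above wild type in gbf1 hyh, none passing. The median rested on the wild type arrays here too: with wild type replicate 2 left out it was -0.15, with replicate 1 left out -0.60, and -0.21 without gbf1 hyh replicate 1. The 25S rRNA control differed by -0.42.

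In the gbf1 single mutant 1 of the 43 genes fell, the NDH gene ndhJ. The call compares with 0.193% of all probe sets called lower and 0.224% higher. Over the 43 the median was -0.12 and 34 genes were below wild type, against 0.0058 and 48.8% over all probe sets. Both gbf1 arrays lay below both wild type arrays for 6 genes and above them for 2, where 18% and 18.8% of all probe sets were.

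The ndhJ gene encodes a subunit of the stromal arm of the NDH complex. Its signals were 0.57 and 0.68 in wild type, -0.56 and -0.31 in gbf1, -0.30 and 0.069 in gbf1 hy5, and -0.069 and 0.17 in gbf1 hyh. Wild type was the highest genotype on both arrays and gbf1 the lowest, with the double mutants between. It fell by 1.06 in gbf1 (SE 0.18, limma adjusted p = 0.0481), from 0.63 ± 0.078 (SD, n = 2) to -0.43 ± 0.18. The call ended when any 1 of the 8 arrays was left out (adjusted p up to 0.426), while the difference stayed between -1.19 and -0.93, and it was kept without the high spike-in pair (adjusted p = 0.0465). The adjacent gene ndhK, of the same arm, was at 0.12 and 1.08 in wild type, -0.73 and 0.00080 in gbf1, -0.44 and -0.00080 in gbf1 hy5, and -0.011 and 0.50 in gbf1 hyh. It had a similar difference of -0.96 (SE 0.35, limma adjusted p = 0.443) from much wider replicates, and ndhC, the third gene of this cluster, was at -0.023.

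The other complexes held no called gene in gbf1. Photosystem II had a median of -0.24 with psbC (-0.49) as its largest difference, ATP synthase -0.18 with atpI (-0.48), which encodes a membrane subunit, and cytochrome b6f -0.13 with petL (-0.52). Photosystem I stood at -0.018 with psaA at -0.44, NDH at -0.063, and rbcL was at 0.25. Without the high spike-in pair, which leaves gbf1 with replicate 1 alone, each of these values was lower: photosystem I -0.50, photosystem II -0.52, cytochrome b6f -0.25, ATP synthase -0.36, NDH -0.39, and rbcL 0.10. The gene petA was at 0.35 and ndhG at 0.42, the largest values above wild type. The sign of the median was not stable: it was 0.037 without wild type replicate 2, 0.017 without gbf1 replicate 1, -0.34 without wild type replicate 1 and -0.46 without gbf1 replicate 2, an array of high spike-in signal. The 25S rRNA control was 0.30 higher in gbf1, a direction opposite to the median of the 43.

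These comparisons with wild type share the 2 wild type arrays, and the next comparisons share the gbf1 arrays, so their values are not independent of each other.

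In gbf1 hy5 against gbf1, genotypes labelled as differing in HY5, 1 of the 43 genes fell, petA, the gene of cytochrome f. Over all probe sets 2.05% were called lower and 2.4% higher, so 1 call among the 43 is about the share called lower over the whole array. Over the 43 the median was -0.27, with 39 genes below gbf1, against 0.012 and 47.9% below over all probe sets. Both gbf1 hy5 arrays lay below both gbf1 arrays for 17 genes, where 20.2% of all probe sets did.

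Signals of petA were -0.026 and 0.23 in wild type, 0.26 and 0.64 in gbf1, -0.31 and -0.40 in gbf1 hy5, and -0.29 and 0.026 in gbf1 hyh. Both gbf1 arrays were the highest of the 8, by little over wild type replicate 2, and both gbf1 hy5 arrays the lowest. The fall was 0.80 (SE 0.19, limma adjusted p = 0.0455), from 0.45 ± 0.27 (SD, n = 2) to -0.35 ± 0.058. It did not pass when wild type replicate 1 or 2, gbf1 replicate 2, or gbf1 hy5 replicate 1 or 2 was left out (adjusted p up to 0.254), and it was -0.61 (adjusted p = 0.0866) without the high spike-in pair. The small photosystem I gene psaI, listed in the same transcript cluster, was at -0.84 (adjusted p = 0.195).

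The largest differences of the other complexes between gbf1 hy5 and gbf1 did not pass. They were psbK in photosystem II (-1.33, SE 0.37, limma adjusted p = 0.0819), psaJ in photosystem I (-1.19, SE 0.37, limma adjusted p = 0.117), ndhG in NDH (-1.17, adjusted p = 0.263) and atpA in ATP synthase (-0.93, adjusted p = 0.204). The psbI gene was at -0.99 (SE 0.27, limma adjusted p = 0.0822). Median differences were -0.53 in photosystem II, -0.41 in photosystem I, -0.27 in NDH, -0.25 in ATP synthase and -0.14 in cytochrome b6f. Without the high spike-in pair they were all nearer to 0, at 0.015, -0.15, -0.11, -0.088 and -0.047 in the same order, and that of photosystem II turned sign. The 2 NDH genes above gbf1 were ndhJ (0.32) and ndhK (0.14).

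The median over the 43 rested on gbf1 replicate 2: without it, or without the high spike-in pair, it was -0.055 with 27 genes below gbf1, and without gbf1 replicate 1 it was -0.60. Without gbf1 hy5 replicate 1 it was -0.17, and without gbf1 hy5 replicate 2 -0.49. In the fit without the high spike-in pair psaJ (adjusted p = 0.0153) and psbK (adjusted p = 0.0399) were called lower instead of petA. The 25S rRNA control differed by -1.17.

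In gbf1 hyh against gbf1, genotypes labelled as differing in HYH, psbK and psbI fell, and no other of the 43 genes passed. Over all probe sets 1.5% were called lower and 1.01% higher. Against gbf1 psbK fell by 1.75 (SE 0.37, limma adjusted p = 0.0424) and psbI by 1.43 (SE 0.27, limma adjusted p = 0.0286). Both gbf1 hyh arrays lay below both gbf1 arrays for 10 of 43 genes and above them for 5, where 17.2% and 21.1% of all probe sets did. The median of the 43 was -0.20, against 0.021 over all probe sets.

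The call of psbK ended when any 1 of the 6 arrays of wild type, gbf1 and gbf1 hyh was left out (adjusted p up to 0.2). That of psbI ended when any 1 of these but gbf1 replicate 2 was left out (adjusted p up to 0.133). Without the high spike-in pair they were at -1.75 and -1.63 (adjusted p = 0.0944 and 0.0675). The sign of the median changed with 1 array: it was 0.080 without gbf1 replicate 2, -0.48 without gbf1 replicate 1, and -0.055 without the high spike-in pair. The difference of the 25S rRNA control was -0.72, and its part was not tested.

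The Rubisco gene rbcL was at -0.76 against gbf1 (SE 0.18, limma adjusted p = 0.0615). The cytochrome b6f genes were all 6 below gbf1, with a median of -0.41 and petA at -0.58, and the NDH median was -0.39 with ndhG at -0.82. In the other complexes the largest differences were psaC in photosystem I (-0.88) and atpF, a membrane-stalk gene of ATP synthase (-0.38). Medians were -0.012 in photosystem I, -0.068 in photosystem II and -0.032 in ATP synthase. They were, without the high spike-in pair, -0.26, 0.043 and 0.27, the last 2 with the sign turned, while NDH was at -0.15 and cytochrome b6f at -0.19. Means above gbf1 were largest in ndhK (0.61), psbA (0.60), psaA (0.54) and ndhJ (0.48), none passing. Without gbf1 replicate 2, which leaves gbf1 with replicate 1 alone, psbA was at 1.19, opposite in direction to psbK and psbI. The psbA signals were -0.85 and 0.32 in gbf1 and 0.19 and 0.48 in gbf1 hyh, so the larger value rested on gbf1 replicate 1.

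The double mutants differed from each other in none of the 43 genes by the limma test, where 1.02% of all probe sets were called lower and 1.76% higher in gbf1 hy5. At an unadjusted p under 0.05 there were 4 genes, where 14.1% of all probe sets were. The psaJ gene was 1.34 lower in gbf1 hy5 (SE 0.37, limma adjusted p = 0.105) and psaA 0.76 lower (SE 0.17, limma adjusted p = 0.0551), while rbcL was 0.50 higher (SE 0.18, limma adjusted p = 0.215). The psbK and psbI genes, low in both, were 0.43 and 0.44 higher in gbf1 hy5 than in gbf1 hyh (SE 0.37 and 0.27, adjusted p = 0.701 and 0.554).

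Between the double mutants the photosystem I median was -0.37, ATP synthase -0.32 with atpA at -0.60, photosystem II -0.25 with psbM at -0.93, NDH -0.12 with ndhK at -0.46, and cytochrome b6f 0.088 with petG at 0.42. With the high spike-in pair left out, photosystem I was at -0.16, ATP synthase at -0.39, photosystem II at -0.15, NDH at -0.021 and cytochrome b6f at 0.14. Arrays of gbf1 hy5 were both below both gbf1 hyh arrays for 14 genes and above for 3, where 22% and 22.1% of all probe sets were. Their median, -0.19 over the 43, became -0.046 without gbf1 hyh replicate 2 and -0.077 without gbf1 hy5 replicate 1. The 25S rRNA control differed by -0.46.

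Genes of one transcript cluster, as commonly described for plastids, can be set side by side along the plastid gene order. In gbf1 hyh against wild type, pairs of genes listed in the same cluster differed from each other by a median of 0.19 (54 pairs), and other pairs of the 43 by 0.34 (849 pairs). In gbf1 hy5 against wild type the 2 medians were 0.36 and 0.35, and in gbf1 against wild type 0.20 and 0.25. Pairs share genes and arrays, so these are descriptions with no test.

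A stretch with large differences, chosen after its values were seen, runs from psbK and psbI into the ATP synthase cluster atpA, atpF, atpH and atpI, which follows in the gene order. In gbf1 hy5 against wild type the values along it were -1.43, -1.06, -1.24, -0.84, -0.47 and -0.42, each step from atpA on closer to 0. In gbf1 hyh they were -1.86, -1.50, -0.64, -0.31, -0.28 and -0.46, and in gbf1 -0.10, -0.071, -0.31, 0.070, -0.20 and -0.48. The protein gene before psbK, the ribosomal gene rps16, was named after its values were seen. Its signals were -0.039 and 0.97 in wild type, 0.62 and 1.15 in gbf1, -0.99 and -0.64 in gbf1 hy5, and 0.039 and -0.65 in gbf1 hyh, and it fell by 1.70 in gbf1 hy5 against gbf1 (SE 0.35, limma adjusted p = 0.0281), where gbf1 hyh was at -1.19 (adjusted p = 0.136). Against wild type rps16 was at -1.28 in gbf1 hy5 (adjusted p = 0.118) and -0.77 in gbf1 hyh (adjusted p = 0.503), neither passing.

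**Figure D5:**
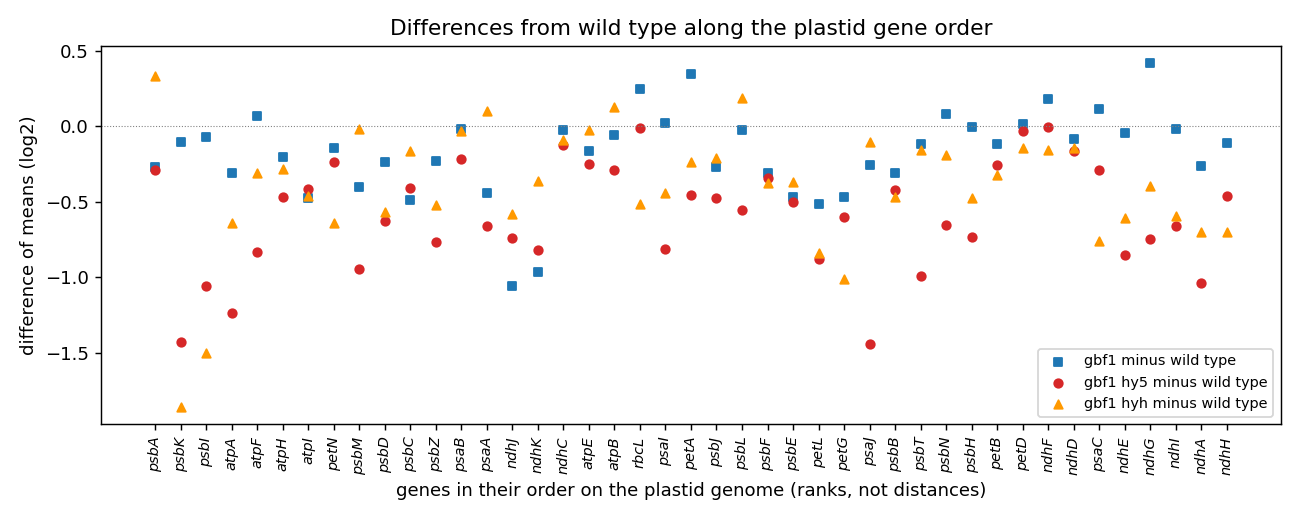
Difference of genotype means from wild type (log2) for the 43 genes in their order along the plastid genome, by rank and not by distance, in gbf1 (squares), gbf1 hy5 (circles) and gbf1 hyh (triangles). The lowest points of gbf1 hyh are psbK at -1.86 and psbI at -1.50, and ndhJ and ndhK are the lowest of gbf1.

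Values within other clusters varied. In the cluster psbB, psbT, psbH, petB and petD the differences of gbf1 hy5 from wild type were -0.42, -0.99, -0.74, -0.26 and -0.031. In the cluster from ndhH to ndhD, which also holds psaC, they ran from -1.04 in ndhA to -0.16 in ndhD. The pairs atpB and atpE (-0.29 and -0.25) and psbE and psbF, the genes of the cytochrome subunits of photosystem II (-0.50 and -0.34), had similar values within the pair.

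The nuclear genes of the same complexes were covered by 7 probe sets of their own, PSAE-1, PSAN, PSBW, PSBY, PSB27, ATPC1 and ATPC2. In gbf1 hy5 against gbf1, 3 of the 7 fell: PSBW, a small photosystem II subunit, by 0.92 (SE 0.20, limma adjusted p = 0.0377), PSBY, another one, by 0.86 (adjusted p = 0.0218), and PSAN, a lumenal photosystem I subunit, by 0.76 (adjusted p = 0.0407). In this comparison 2.05% of all probe sets were called lower and 2.4% higher. Against wild type PSAN fell in gbf1 hy5 by 0.81 (adjusted p = 0.0486), where 1.11% of all probe sets were called lower. The median of the 7 was -0.50 there, beside -0.56 for the plastid genes. In gbf1 hyh against wild type none of the 7 passed and their median was 0.048, where the plastid genes were at -0.37.

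The gamma-subunit gene ATPC2 of ATP synthase rose by 0.92 in gbf1 hyh against gbf1 (adjusted p = 0.0497) and was lower by 1.05 in gbf1 hy5 than in gbf1 hyh (adjusted p = 0.0279). PSBW was also lower in gbf1 hy5 than in gbf1 hyh, by 0.92 (adjusted p = 0.0487). None of the 7 passed in gbf1 against wild type, where their median was 0.057.

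Of the 4 plastid genes of the bacterial-type polymerase, rpoC1 fell in both double mutants against gbf1, by 0.83 in gbf1 hy5 (adjusted p = 0.0156) and by 0.90 in gbf1 hyh (adjusted p = 0.0163). The other 3 did not pass in any of the 6 comparisons, and their values against gbf1 had both signs: rpoC2 was at 0.60 in gbf1 hy5 and 0.32 in gbf1 hyh, rpoB at 0.25 and 0.30, and rpoA at -0.53 and -0.53. No sigma factor or polymerase-associated protein of the nucleus had a single-gene probe set in that table.

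Of the 4 plastid assembly genes ycf3, ycf4, cemA and ccsA, ycf3, which acts in assembling photosystem I, fell in gbf1 hy5 against wild type by 0.94 (adjusted p = 0.0343) and against gbf1 by 0.92 (adjusted p = 0.0246). Its signals were 0.28 and 0.55 in wild type, 0.37 and 0.42 in gbf1, -0.75 and -0.31 in gbf1 hy5, and -0.28 and -0.47 in gbf1 hyh. Both double mutants lay below wild type and gbf1 on every array. In gbf1 hyh ycf3 was at -0.79 against wild type (adjusted p = 0.096), and ycf4, another photosystem I assembly gene, was at -0.84 in gbf1 hy5 and -0.44 in gbf1 hyh against wild type without passing.

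The 26 other plastid-encoded genes, among them the polymerase and assembly genes, had median differences from wild type of 0.059 in gbf1, -0.54 in gbf1 hy5 and -0.39 in gbf1 hyh. The values of the 43 photosynthesis genes were -0.12, -0.56 and -0.37. For the 23 mitochondrial probe sets the medians were -0.11, -0.030 and -0.012, and none was called in any of the 6 comparisons. Of markers of green tissue, 3 probe sets of LHCB4 antenna genes had medians of 0.39, -0.38 and -0.12, with 0, 1 and 0 called. The called one was LHCB4.2, which fell by 1.89 in gbf1 hy5 (limma adjusted p = 0.00113), where 1.11% of all probe sets were called lower. The 3 did not share a direction there, since 1 of them was above wild type, at 0.22. The 2 root-hair genes had medians of 1.58, 0.13 and 0.60, with 1, 0 and 1 called. Both of these calls were EXPA18, a root-hair expansin gene, which rose by 1.98 in gbf1 (adjusted p = 0.00173) and by 1.08 in gbf1 hyh (adjusted p = 0.0146). Of all probe sets 0.224% were called higher in gbf1 and 0.365% in gbf1 hyh. In gbf1 hy5 against gbf1, where petA fell, both root-hair genes and LHCB4.2 fell too, with EXPA7 at -1.18 (adjusted p = 0.0246), EXPA18 at -1.71 (adjusted p = 0.000659) and LHCB4.2 at -2.28 (adjusted p = 0.000257). In gbf1 hyh against gbf1, where psbK and psbI fell, EXPA18 fell by 0.91 (adjusted p = 0.0215), EXPA7 was at -1.06 and LHCB4.2 at -0.82 without passing. Between the double mutants EXPA18 (-0.80) and LHCB4.2 (-1.45) were lower in gbf1 hy5 (adjusted p = 0.0332 and 0.00347). The part of tissue composition in the plastid differences was not tested.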

How the data were processed

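Transcript signals were measured in whole seedlings on 8 arrays, 2 for each of 4 genotypes. The authors' software was GeneSpring, per the series design text, and their summary method was RMA, per the submitters' processing notes, each without a version. The deposited values were taken as log2 signals, although no source names the base. Each probe set's median over the arrays is 0 within 1e-06. Raw array images were not used here.

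The 64 control probe sets were left out, and all 22746 others entered a linear model of 4 genotype means, with no replicate block, in limma 3.58.1 under R 4.3.3. The empirical Bayes step used 5.124 prior beside 4 residual degrees of freedom. Benjamini-Hochberg adjustment covered all 22746, and a gene was called at an adjusted p under 0.05. The number of arrays limits the precision. Genes came from a platform table and a TAIR10.1 gene table, which was used for names and gene order and not for coordinates. A difference is the first genotype's mean minus the second's, and arrays were called apart when both of one genotype lay beyond both of the other. Alternatives were quantile normalisation, median centring, a trended robust prior, fits of the compared genotypes alone, a replicate block and arrays left out. Transcript clusters follow general knowledge of plastid genomes, and the mitochondrial probe sets were recognised by symbol.

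The genes, lists and tests were chosen with earlier results of these data known. Named were the called genes, the gene with the largest difference in each complex, a list of core subunits, and called genes of the lists of nuclear subunits, polymerase and assembly genes. Some further members are named as values. Green-tissue and root-hair markers were listed but their levels cannot be read from centred values, and no seed marker of the list had a probe set of its own.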

Additional observations from a re-analysis of the deposited data

How the results depend on the processing

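With 1 array left out, genes called among the 43 ranged from 0 to 0 for gbf1 vs wild type, 0 to 1 for gbf1 hy5 vs wild type, 0 to 2 for gbf1 hyh vs wild type, 0 to 5 for gbf1 hy5 vs gbf1, 0 to 2 for gbf1 hyh vs gbf1, 0 to 1 for gbf1 hy5 vs gbf1 hyh. Their median difference ranged from -0.46 to 0.037 for gbf1 vs wild type, -0.80 to -0.33 for gbf1 hy5 vs wild type, -0.60 to -0.15 for gbf1 hyh vs wild type, -0.60 to -0.055 for gbf1 hy5 vs gbf1, -0.48 to 0.080 for gbf1 hyh vs gbf1, -0.27 to -0.046 for gbf1 hy5 vs gbf1 hyh, so its sign depended on the array in gbf1 vs wild type and gbf1 hyh vs gbf1 and stayed negative in the other 4. Probe sets called over the whole array ranged from 9 to 138 for gbf1 vs wild type, 88 to 609 for gbf1 hy5 vs wild type, 68 to 365 for gbf1 hyh vs wild type, 241 to 1276 for gbf1 hy5 vs gbf1, 282 to 660 for gbf1 hyh vs gbf1, 162 to 794 for gbf1 hy5 vs gbf1 hyh. After quantile normalisation, genes called among the 43 were 4 for gbf1 hy5 vs wild type. There, probe sets called over the array were 788 for gbf1 hy5 vs wild type, 465 for gbf1 hyh vs wild type, 149 for gbf1 vs wild type. With a trended robust prior, genes called among the 43 were 2 for gbf1 hy5 vs gbf1, 0 for gbf1 hyh vs gbf1, 0 for gbf1 hyh vs wild type. There, probe sets called over the array were 389 for gbf1 hy5 vs gbf1 hyh, 295 for gbf1 hy5 vs wild type, 61 for gbf1 vs wild type. They were 771 for gbf1 hy5 vs gbf1, 423 for gbf1 hyh vs gbf1 and 196 for gbf1 hyh vs wild type. In fits of the compared genotypes alone, genes called among the 43 were 7 for gbf1 hy5 vs wild type, 0 for gbf1 hyh vs gbf1, 0 for gbf1 vs wild type. There, probe sets called over the array were 566 for gbf1 hy5 vs gbf1, 376 for gbf1 hy5 vs gbf1 hyh, 1126 for gbf1 hy5 vs wild type, 90 for gbf1 hyh vs gbf1, 178 for gbf1 hyh vs wild type, 36 for gbf1 vs wild type. With the pair of high spike-in arrays left out, genes called among the 43 were 2 for gbf1 hy5 vs gbf1, 7 for gbf1 hy5 vs wild type, 0 for gbf1 hyh vs gbf1, 0 for gbf1 hyh vs wild type. There, probe sets called over the array were 1126 for gbf1 hy5 vs wild type. There, the median difference of the 43 was -0.46 for gbf1 vs wild type. With a replicate block, genes called among the 43 were 5 for gbf1 hy5 vs gbf1, 1 for gbf1 hy5 vs gbf1 hyh, 5 for gbf1 hy5 vs wild type. There, probe sets called over the array were 1224, 736 and 544 of 22746 in the same order. The replicate numbers are labelled as replicates only. Correlations of replicate differences between genotypes ran from -0.11 to 0.34, the highest between gbf1 and gbf1 hyh. In every genotype replicate 2 had the lower 3' minus 5' control signal and was the higher array for most of the 43 genes. Whether equal replicate numbers mark a shared batch is not stated and was not tested. Median centring moved no count of calls by over 1.5 times and ended none of the 6 calls. Every called gene of the 43 kept its direction in all 14 alternatives. Of the 6 calls, all 4 of psbK and psbI ended with the trended prior and with that pair of arrays left out, as did petA with the latter. Fits of the compared genotypes alone ended ndhJ, petA and, against gbf1, psbK and psbI; those fits have fewer residual degrees of freedom. Quantile normalisation ended petA (adjusted p = 0.0515), and the replicate block ended psbK in gbf1 hyh vs wild type (adjusted p = 0.0554). In gbf1 hy5 vs gbf1, quantile normalisation called psbK lower instead of petA (limma adjusted p = 0.0487). The fit of those genotypes alone called psaJ lower instead (limma adjusted p = 0.0361). Why calls ended in these alternatives was not tested. The planned filter on dim probe sets was not run, since centred values hold no level.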
